A study of Homo sapiens with 17 samples.

Results

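The genes of cholesterol and fatty acid synthesis were followed in MOLM13, a human acute myeloid leukemia cell line that carries the MLL-AF9 fusion, after CRISPR knockout of HOXA9, SAFB or MEIS1. The set has 30 genes of the 58278 identifiers in the count files, matched by symbol to their Ensembl identifiers, and is described as a sterol branch of 21 genes and a fatty acid branch of 9 genes. Each of the 30 passed the low-count filter in every comparison. The series asks how expression changes when HOXA9 or SAFB, named in its title as parts of a repressive complex, is lost. A gene is called higher or lower where edgeR's quasi-likelihood test, fitted over all genes, gave a Benjamini-Hochberg adjusted p under 0.05. In HOXA9 knockout cells 23 of the 30 were lower than in control cells and 1 was higher, where 29.9% of all genes tested were lower and 57.5% were called in either direction. The largest falls were those of the fatty acid desaturases FADS2 and SCD and the lipogenic regulator SREBF1. In SAFB knockout cells 13 were lower and 3 higher, against 15.3% and 20.2% of all genes, and in MEIS1 knockout cells no member was called, against 8.81%.

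Total RNA of 17 libraries was sequenced in 2 experiments. The HOXA9 and SAFB experiment held 3 non-targeting control libraries (NT), 3 libraries of HOXA9 knockout cells (HOXA9_KO) and 3 of SAFB knockout cells (SAFB_KO). The MEIS1 experiment held 4 non-targeting control libraries of its own (NT_MEIS1ex) and 4 libraries of MEIS1 knockout cells (MEIS1_KO). HOXA9 is a homeodomain transcription factor, MEIS1 is a homeodomain cofactor that binds DNA with it, and SAFB is a nuclear matrix-associated protein. All groups share the MLL-AF9 background of the single line, and the labels give neither the guides, the time after knockout, nor whether pools or clones were used. They do not say that replicates were separate cultures, so p-values measure only the spread between these libraries.

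Reads assigned to genes numbered 23.3 to 67.8 M per library. Levels are read counts scaled to library size in the usual CPM unit, with TMM factors, which assume that most genes do not change, taken within an experiment, so they are comparable within an experiment only. As mitochondrial RNA varied, each comparison was also scaled to the reads of nuclear protein-coding genes alone, without TMM factors. That setting changed both the reads that set library size and the use of TMM factors. The part of each in its results was not tested. Reads of the 2 mitochondrial rRNA genes took 22.5 to 28.4% of assigned reads in NT, 24.9 to 27.0% in SAFB_KO and 31.9 to 35.5% in HOXA9_KO, but at most 0.0094% in the MEIS1 experiment. The targeted transcripts were lower in their own knockout without being lost, which does not measure the edited protein: HOXA9 was at 40.1 to 42.0 CPM in NT and 21.1 to 21.9 in HOXA9_KO, SAFB at 33.6 to 40.9 in NT and 19.4 to 22.2 in SAFB_KO, and MEIS1 at 31.7 to 33.4 in NT_MEIS1ex and 10.3 to 12.8 in MEIS1_KO. MEIS1 transcript was also low in HOXA9_KO, at 16.1 to 17.7 CPM against 48.4 to 50.4 in NT. Myeloid markers were present throughout, and the erythroid and platelet genes GYPB, PF4 and PPBP were at 0 in every library.

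Cholesterol is made from acetyl-CoA through mevalonate, farnesyl diphosphate, squalene and lanosterol, and fatty acids are made from the same precursor through malonyl-CoA and are then elongated and desaturated. Both branches are controlled by the SREBP transcription factors, which are held in the endoplasmic reticulum by INSIG proteins when sterols are plentiful and are carried by SCAP to the Golgi for cleavage when sterols are low. The SREBF2 product acts mainly on sterol genes and the SREBF1 product mainly on fatty acid genes. SREBPs bind sterol regulatory elements in promoters, usually next to sites for NF-Y and Sp1, and dividing cells draw on both branches for membranes.

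The members' promoters were searched for the letters of these elements. The RefSeq promoter table (GRCh38.p14) held an entry for 26 of the 30 members, and the 250 bases before each listed start were searched on both strands. The NF-Y box CCAAT lay in 16 of 18 sterol members (88.9%) and 4 of 8 fatty acid members (50%), against 40.8% of the genes tested in HOXA9_KO and 37.0% of all genes in the table. The GC box GGGCGG, the Sp1 type of site, lay in 94.4% of sterol members and 100% of fatty acid members, against 70.7% of tested genes. A loose sterol regulatory element, TCACNCNAC, was found in FDPS, HSD17B7 and SREBF2 (16.7% of sterol members) and in ACSS2 and FADS2 (25.0% of fatty acid members), against 2.60% of tested genes. The FADS2 match lay before a listed start whose following bases were in no GENCODE transcript of the gene. The other FADS2 window had no match. The stricter form TCACNCCAC, which the loose form includes, matched SREBF2 alone, and the E-box CACGTG matched 2 sterol members (11.1%) and no fatty acid member, against 10.8% of tested genes. These matches describe letters in a window and do not show binding.

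The upstream stretches below show where these letters stand in the 3 sterol members and the fatty acid member with the strongest evidence of change in HOXA9_KO, and in SREBF2, which was added after its match was seen. Each runs 5′ to 3′ on the gene's strand from 250 bases before the RefSeq start to the base before the gene's first GENCODE exon. Capitals mark the loose sterol regulatory element and the NF-Y box, the latter read as CCAAT or, on the opposite strand, ATTGG.
FDPS, chr1:155308616-155308747, plus strand: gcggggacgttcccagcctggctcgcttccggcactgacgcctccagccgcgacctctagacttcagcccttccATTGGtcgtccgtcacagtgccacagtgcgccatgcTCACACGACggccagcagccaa
HMGCS1, chr5:43313513-43313662, minus strand: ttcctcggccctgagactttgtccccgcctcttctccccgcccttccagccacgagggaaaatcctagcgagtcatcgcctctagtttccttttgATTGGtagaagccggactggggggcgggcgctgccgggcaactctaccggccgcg
LSS, chr21:46228825-46229024, minus strand: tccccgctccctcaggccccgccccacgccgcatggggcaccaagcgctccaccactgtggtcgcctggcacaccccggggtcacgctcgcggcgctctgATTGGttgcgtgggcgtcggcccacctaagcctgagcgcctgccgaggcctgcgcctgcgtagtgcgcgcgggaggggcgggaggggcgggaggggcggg
SCD, chr10:100346983-100347123, plus strand: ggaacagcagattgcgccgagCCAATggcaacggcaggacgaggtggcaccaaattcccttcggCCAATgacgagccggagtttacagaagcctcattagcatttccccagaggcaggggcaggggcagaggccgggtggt
SREBF2, chr22:41832855-41833078, plus strand: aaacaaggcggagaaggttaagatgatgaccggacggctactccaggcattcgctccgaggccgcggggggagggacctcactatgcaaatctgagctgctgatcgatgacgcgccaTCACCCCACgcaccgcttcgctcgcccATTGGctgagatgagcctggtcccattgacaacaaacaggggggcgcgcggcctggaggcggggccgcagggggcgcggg
In these stretches FDPS and SREBF2 hold both elements, HMGCS1 and LSS hold 1 NF-Y box each, and SCD holds a pair of NF-Y boxes. The full windows run past the stretches and hold 3 NF-Y boxes in FDPS and 2 in HMGCS1.

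Before any knockout the members differed widely in level. Per kilobase of exon in NT, SCD stood highest at 237 ± 2.0 CPM per kb (SD, n = 3), followed by INSIG1 at 84.5 ± 1.7 and FDFT1 at 71.4 ± 2.0. ACLY at 67.6 ± 0.94 and FDPS at 66.6 ± 1.7 did not differ beyond their spread. ELOVL6, an elongase, was lowest at 0.270 ± 0.039 CPM per kb. CYP51A1, the lanosterol demethylase, was next at 1.74 ± 0.042, and 79.35% of its exon sequence is shared on its strand with other annotated genes, so its counts may miss ambiguous reads. The coefficient of variation between libraries of a group had a median over members of 3.16 to 4.69% in the 5 groups.

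**Figure D1:**
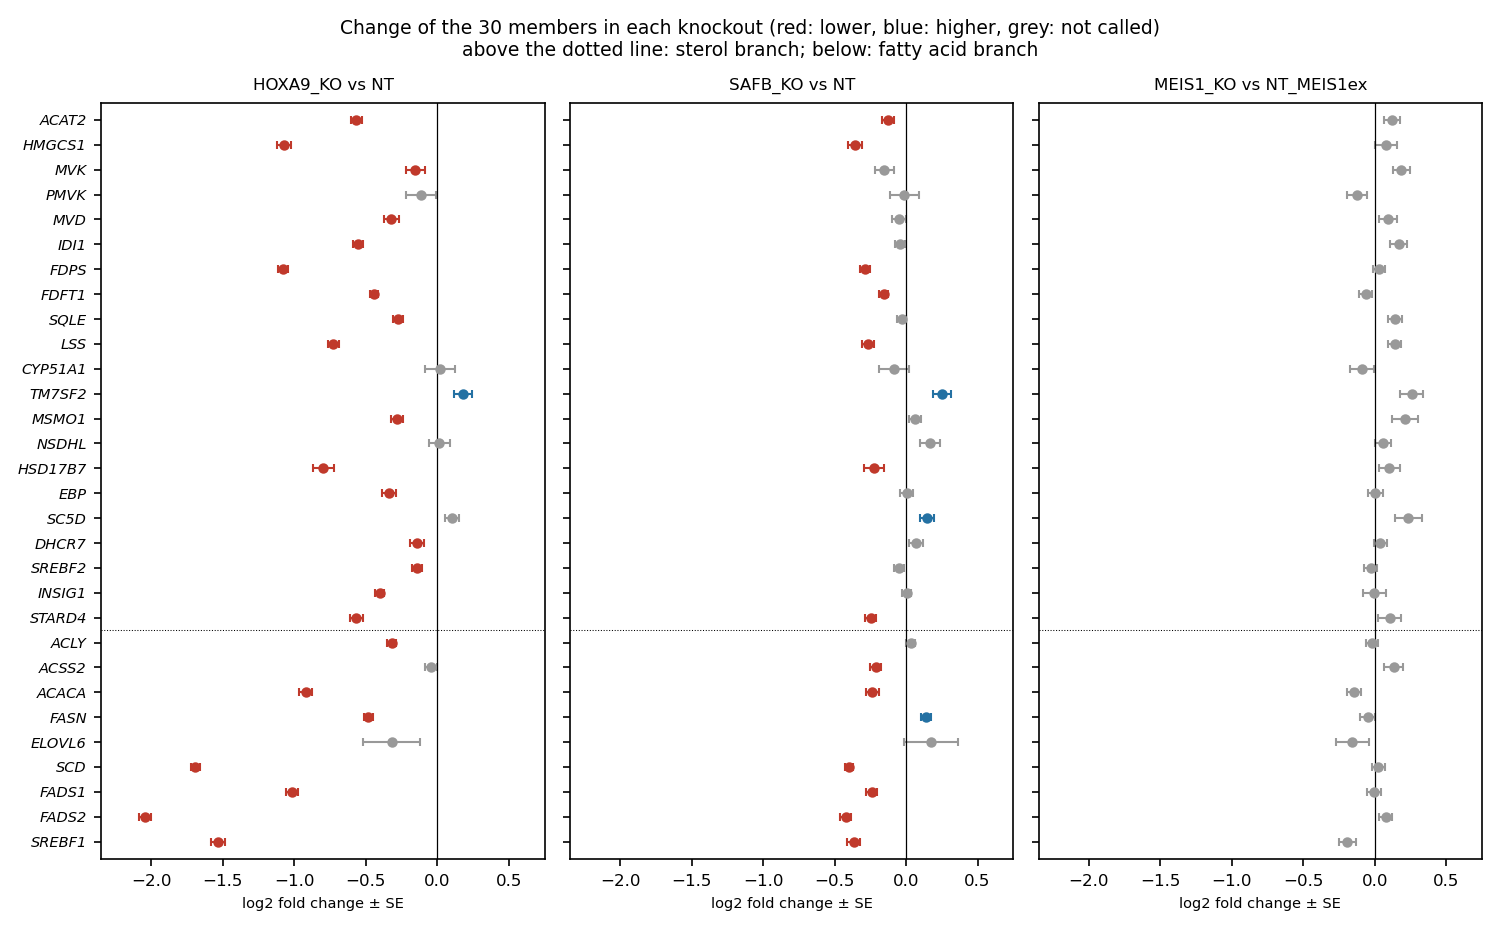
Log2 fold change ± SE (x axis) of the 30 members (y axis, in pathway order) in HOXA9_KO and SAFB_KO against NT and in MEIS1_KO against NT_MEIS1ex. Points in HOXA9_KO reach -2.05 for FADS2, those in SAFB_KO reach -0.42, and those in MEIS1_KO lie between -0.19 and 0.26. The few blue points lose their call when libraries are scaled to nuclear protein-coding counts.

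In HOXA9_KO against NT, 16 of 21 sterol members were lower, 1 was higher and 4 were not called, with a median log2 change of -0.32 against -0.07 over all genes tested. Across all 18876 genes tested, edgeR called 29.9% lower and 27.6% higher in this comparison, 57.5% in either direction. The libraries of the 2 groups did not overlap for 15 sterol members that were lower and 2 that were higher, against 33.5% and 29.1% of all genes, 62.6% in either direction. Scaled to nuclear protein-coding counts, the median over all genes moved by -0.25 to -0.32 and the share of calls that were higher went from 48.0 to 23.6%. Scaling moves all genes by about the same amount, so the sterol branch could only stay at -0.25 relative to that median. The 23 lower members of both branches were all still called lower, which the downward shift of all genes favors. Among genes of at least 2 CPM the sterol branch lay at -0.36 relative to the median over all genes.

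Among the mevalonate steps, which lead from acetyl-CoA to farnesyl diphosphate, 6 of 7 were lower. FDPS (ENSG00000160752, chr1:155308748-155320666 on GRCh38), which makes farnesyl diphosphate, was at 240.9, 249.3 and 253.1 CPM in NT and 116.6, 112.5 and 121.6 in HOXA9_KO. HMGCS1 (ENSG00000112972, chr5:43289395-43313512), which makes HMG-CoA, was at 61.3, 60.4 and 62.5 CPM in NT and 28.6, 30.3 and 28.7 in HOXA9_KO. All HOXA9_KO libraries lay below all NT libraries for both genes. FDPS fell by 52.8%, a log2 change of -1.08 ± 0.035 (SE, edgeR adjusted p = 3.17e-31), and HMGCS1 fell by 52.5%, a log2 change of -1.07 ± 0.049 (edgeR adjusted p = 6.64e-25). IDI1, the isopentenyl diphosphate isomerase, was at 136.4, 138.4 and 136.5 CPM in NT and 95.4, 90.0 and 94.6 in HOXA9_KO, a log2 change of -0.55 ± 0.036 (edgeR adjusted p = 5.72e-19). These groups did not overlap either. ACAT2, the cytosolic thiolase that starts the pathway, fell by 0.57 on the log2 scale, though 52.3% of its exon sequence lies opposite genes on the other strand, and MVD, the mevalonate diphosphate decarboxylase, fell by 0.32. MVK, mevalonate kinase, had a log2 change of only -0.16 (edgeR adjusted p = 0.0415). Its groups overlapped, and the call was lost when any library other than NT replicate 2 was left out (edgeR adjusted p = 0.05003 to 0.234) and under 4 other settings. PMVK, the next kinase, had a log2 change of -0.12 and was not called, but was called lower at -0.37 when scaled to nuclear protein-coding counts.

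From squalene onward 7 of 11 members were lower. LSS (ENSG00000160285, chr21:46188141-46228824), which closes the ring of lanosterol, was at 116.4, 121.5 and 128.7 CPM in NT and 73.1, 71.6 and 76.4 in HOXA9_KO. The groups were apart, and the log2 change was -0.73 ± 0.041 (edgeR adjusted p = 6.31e-21). HSD17B7, the ketosteroid reductase of the later steps, fell by 0.80 on the log2 scale, FDFT1, squalene synthase, by 0.44, EBP, the sterol isomerase, by 0.34, MSMO1, the methyl sterol oxidase, by 0.28 and SQLE, squalene epoxidase, by 0.28. DHCR7, a reductase of the last steps, had a log2 change of -0.14 (edgeR adjusted p = 0.0103). That call was lost without NT replicate 3 (adjusted p = 0.227) or HOXA9_KO replicate 1 (adjusted p = 0.0523) and with other size factors (adjusted p = 0.0542), DESeq2 (adjusted p = 0.0962) or only the groups compared (adjusted p = 0.0659). TM7SF2, a sterol reductase, was higher by 0.18 on the log2 scale (edgeR adjusted p = 0.0169), but was at -0.07 and not called when scaled to nuclear protein-coding counts. Its call was also lost without NT replicate 1 (adjusted p = 0.0960) or HOXA9_KO replicate 2 (adjusted p = 0.107) and among genes of at least 2 CPM (adjusted p = 0.0900). CYP51A1, NSDHL and SC5D had log2 changes of 0.02, 0.01 and 0.10 and were not called. Scaled to nuclear protein-coding counts, NSDHL and SC5D were called lower, at -0.24 and -0.15. SC5D, whose libraries lay above all NT libraries, was instead called higher with other size factors (edgeR adjusted p = 0.0197). The same held with DESeq2 (adjusted p = 0.0221) or only the groups compared (edgeR adjusted p = 0.0245).

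The 3 members that regulate or carry sterols were all lower. INSIG1, the sterol-responsive retention factor, was at 304.2, 315.7 and 305.1 CPM in NT and 237.8, 228.4 and 232.9 in HOXA9_KO. STARD4, a cytosolic sterol carrier, was at 84.8, 88.8 and 81.7 CPM in NT and 57.3, 56.9 and 58.1 in HOXA9_KO. SREBF2, the sterol branch regulator, was at 180.6, 189.8 and 199.96 CPM in NT and 170.5, 169.6 and 177.1 in HOXA9_KO. Libraries did not overlap for any of the 3, but the gap was narrow for SREBF2. The log2 changes were -0.40 ± 0.031 for INSIG1, -0.57 ± 0.043 for STARD4 and -0.14 ± 0.035 for SREBF2 (edgeR adjusted p = 4.50e-16, 1.53e-16 and 0.000538).

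Of the fatty acid members, 7 of 9 were lower and 2 were not called. The median log2 change was -0.92, or -0.85 relative to all genes. Among genes of at least 2 CPM, which left out ELOVL6, it was -1.01 relative to all genes. All 7 had libraries apart from NT. SCD (ENSG00000099194, chr10:100347124-100364834), the desaturase that makes oleate and palmitoleate, was at 1258, 1276 and 1277 CPM in NT and 386, 388.5 and 404.5 in HOXA9_KO. FADS2 (ENSG00000134824, chr11:61792980-61867354), the front-end desaturase that opens polyunsaturated fatty acid synthesis, was at 155.7, 168.8 and 173 CPM in NT and 40.04, 39.8 and 40.5 in HOXA9_KO. FADS1 (ENSG00000149485, chr11:61799625-61829318), the desaturase that acts after it, was at 109.2, 109.7 and 117.1 CPM in NT and 54.6, 55.1 and 56.2 in HOXA9_KO. For these 3 desaturases every HOXA9_KO library lay far below every NT library. FADS2 fell by 75.8% (log2 change -2.05 ± 0.042, edgeR adjusted p = 2.94e-39), SCD by 69.1% (-1.69 ± 0.030, edgeR adjusted p = 3.55e-42) and FADS1 by 50.6% (-1.02 ± 0.041, edgeR adjusted p = 5.07e-27). FADS1 lies within the annotated span of FADS2 on the opposite strand, and they overlap in 4.79% and 4.44% of their exon sequence. The strand setting of the counts is given by no source used here.

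SREBF1 (ENSG00000072310, chr17:17810399-17837002), the regulator of this branch, was at 125.6, 139.3 and 145.3 CPM in NT and 49.6, 45.4 and 46.3 in HOXA9_KO. The groups were far apart, with a fall of 65.5%, a log2 change of -1.54 ± 0.048 (edgeR adjusted p = 7.98e-24). ACACA, acetyl-CoA carboxylase, which makes malonyl-CoA, fell by 0.92 on the log2 scale, FASN, fatty acid synthase, by 0.48 and ACLY, which cuts citrate into acetyl-CoA, by 0.32. ACSS2, which makes acetyl-CoA from acetate, had a log2 change of -0.04 and was not called. ELOVL6 had a log2 change of -0.32 ± 0.20 and was not called, at 1.43 to 1.68 CPM in HOXA9_KO and 1.66 to 2.22 in NT. Scaled to nuclear protein-coding counts, ACSS2 and ELOVL6 were called lower, at -0.30 and -0.57.

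**Figure D2:**
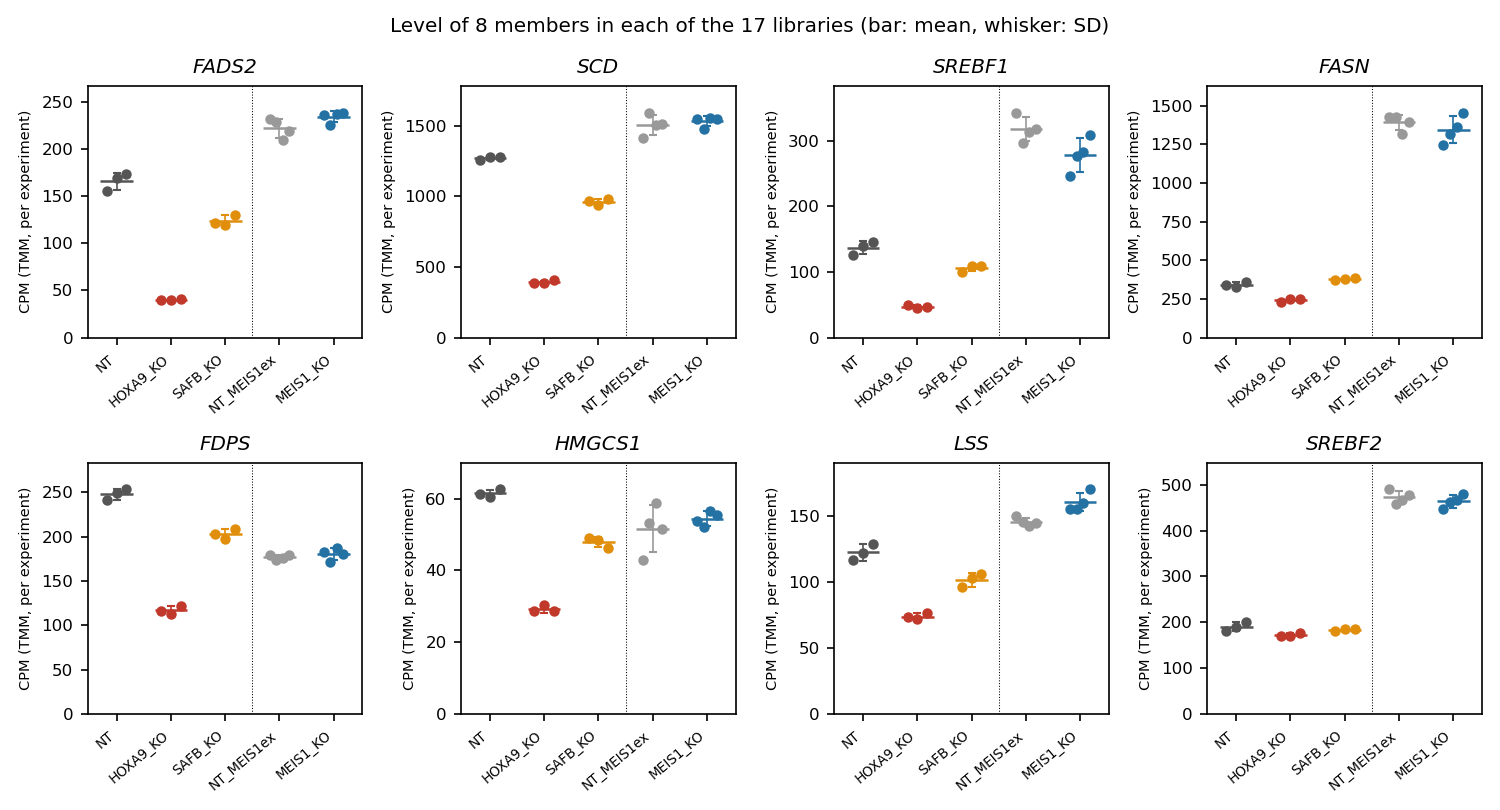
CPM (y axis, from 0, TMM-scaled within each experiment) of FADS2, SCD, SREBF1, FASN, FDPS, HMGCS1, LSS and SREBF2 in each library (points), with group means (bars) and SD (whiskers). The dotted line parts the 2 experiments, whose levels are not comparable. FADS2 lies at about 40.1 CPM in HOXA9_KO, 124 in SAFB_KO and 166 in NT, while SREBF2 differs little between groups of an experiment.

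Summed over the branch, the sterol members took 2246 to 2307 CPM in NT and 1643 to 1699 in HOXA9_KO, and the fatty acid members took 2566 to 2649 CPM in NT and 1200 to 1242 in HOXA9_KO. The sums were apart in both branches. SCD made up 48.9% of the fatty acid sum in NT and 32.1% in HOXA9_KO, and without SCD that sum was still 1305 to 1372 CPM in NT and 814 to 838 in HOXA9_KO.

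Other features of the libraries moved with HOXA9_KO. Of 10 proliferation genes 9 were lower, with a median log2 change of -0.74, and of 10 interferon-response genes all 10 were lower, with a median of -3.43. The summed interferon-response level was 1045 to 1446 CPM in NT, 116 to 137 in HOXA9_KO and 218 to 248 in SAFB_KO. The summed level of 11 myeloid markers was 5682 to 5810 CPM in NT, 30025 to 32960 in HOXA9_KO and 13725 to 15458 in SAFB_KO. Reads that lay in no annotated feature made up 16.4 to 18.1% of all counts in NT. They made up 8.65 to 9.27% in HOXA9_KO and 10.6 to 12.7% in SAFB_KO, so the groups did not overlap. The part of these shifts, and of the mitochondrial rRNA share, in the members' changes was not tested. In such bulk RNA fewer cells of a kind and less RNA per cell cannot be told apart.

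**Figure D3:**
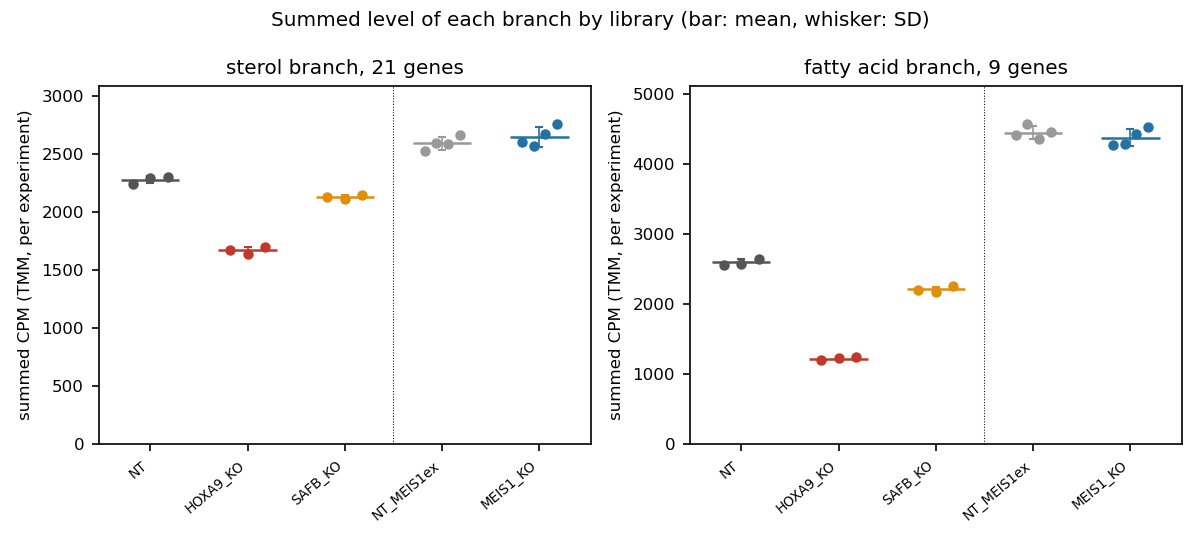
Summed CPM (y axis, from 0) of the 21 sterol members and the 9 fatty acid members in each library (points), with group means (bars) and SD (whiskers). The dotted line parts the 2 experiments. HOXA9_KO is lowest in both branches, at 1643 to 1699 and 1200 to 1242 CPM, SAFB_KO lies between it and NT, and MEIS1_KO overlaps NT_MEIS1ex.

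In SAFB_KO against NT, 7 of 21 sterol members were lower, 2 were higher and 12 were not called, and 6 of 9 fatty acid members were lower and 1 was higher. In this comparison edgeR called 15.3% of all genes lower and 20.2% higher, 35.5% in all. Libraries did not overlap for 15 members that were lower and 3 that were higher, against 22.3% and 24.1% of all genes, 46.3% in either direction. The median log2 change was -0.05 in the sterol branch and -0.24 in the fatty acid branch, against -0.02 over all genes. The comparison shares its 3 NT libraries with that of HOXA9_KO, so the 2 sets of values are given side by side and are not independent. Scaled to nuclear protein-coding counts, the median over all genes moved by -0.14, the share of calls that were higher went from 56.9 to 23.7%, and 14 sterol members were called lower. The 13 lower members were all still lower under that scaling, which moved all genes down and so could hardly lose a lower call. The 3 higher ones were no longer called.

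The lower sterol members in SAFB_KO were spread over the pathway. FDPS was at 202.5, 196.9 and 208.9 CPM in SAFB_KO, below each NT library, a log2 change of -0.29 ± 0.034 (edgeR adjusted p = 8.06e-10). HMGCS1 was at 49.0, 48.5 and 46.3 CPM, also below each NT library, with a log2 change of -0.36 ± 0.046 (edgeR adjusted p = 1.19e-08). LSS was at 95.9, 103 and 105.6 CPM and STARD4 at 70.1, 69.6 and 75.3 CPM. Both were again below every NT library, by 0.27 and 0.25 on the log2 scale (edgeR adjusted p = 4.22e-07 and 3.06e-06). FDFT1 fell by 0.16 on the log2 scale. HSD17B7 fell by 0.22 and ACAT2 by 0.13. The HSD17B7 call was lost without NT replicate 2 (edgeR adjusted p = 0.0663) or SAFB_KO replicate 1 (edgeR adjusted p = 0.0856), and the ACAT2 call without SAFB_KO replicate 2 (edgeR adjusted p = 0.103).

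INSIG1 was at 313.4, 307.7 and 307.1 CPM and SREBF2 at 180.4, 184.6 and 185.1 CPM in SAFB_KO. Both overlapped NT, with log2 changes of 0.00 ± 0.031 and -0.05 ± 0.035, and neither was called, although both were called lower at -0.13 and -0.19 when scaled to nuclear protein-coding counts. The higher members were TM7SF2 at 0.25 and SC5D, the sterol desaturase, at 0.14 on the log2 scale, with values of 0.11 and 0.01 and no call under that scaling. The SC5D call was also lost without NT replicate 1 (edgeR adjusted p = 0.0827), SAFB_KO replicate 1 (edgeR adjusted p = 0.0721) or SAFB_KO replicate 3 (edgeR adjusted p = 0.0640) and among genes of at least 2 CPM (edgeR adjusted p = 0.131). Of the members not called, NSDHL was called higher without NT replicate 2 (edgeR adjusted p = 0.0269) or SAFB_KO replicate 3 (edgeR adjusted p = 0.0344), DHCR7 higher without NT replicate 3 (edgeR adjusted p = 0.0194) and MVK lower without NT replicate 2 (edgeR adjusted p = 0.0241).

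In the fatty acid branch SCD was at 967.1, 936.9 and 982.8 CPM in SAFB_KO, FADS2 at 121.5, 119.7 and 130.3, and SREBF1 at 99.996, 108.8 and 108.9. Each lay below all NT libraries and above all HOXA9_KO libraries. The log2 changes were -0.40 ± 0.029 for SCD, -0.42 ± 0.039 for FADS2 and -0.37 ± 0.045 for SREBF1 (edgeR adjusted p = 2.46e-16, 7.15e-13 and 5.53e-08). FADS1 and ACACA fell by 0.24 each and ACSS2 by 0.21 on the log2 scale. FASN was higher, at 370.6, 379.2 and 383.2 CPM against 339.8, 327.3 and 360.2 in NT. Its groups did not overlap and its log2 change was 0.14 ± 0.034 (edgeR adjusted p = 0.000811), but it was 0.00 (edgeR adjusted p = 0.961) when scaled to nuclear protein-coding counts. ACLY had a log2 change of 0.03 and was not called, and was called lower at -0.11 under that scaling. Beside these values, 7 of 10 proliferation genes were lower with a median log2 change of -0.18. The part of that shift, and of the lower share of reads with no feature, in the members' changes was not tested.

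Tested against each other, HOXA9_KO was lower than SAFB_KO for 22 members, higher for ACSS2 alone, and not called for 7, with edgeR calling 20.5% of all genes lower and 20.1% higher, 40.6% in either direction. Libraries of the 2 knockouts did not overlap for 23 members that were lower in HOXA9_KO and 2 that were higher, against 24.6% and 23.6% of all genes, 48.3% in either direction. SCD fell by 59.2% from SAFB_KO to HOXA9_KO and FADS2 by 67.6%, log2 differences of -1.29 ± 0.030 and -1.63 ± 0.043 (edgeR adjusted p = 1.70e-36 and 5.67e-34). FDPS differed by -0.79, FADS1 by -0.78 and FASN by -0.62 on the log2 scale. INSIG1, which overlapped between SAFB_KO and NT, differed by -0.41. SREBF2 differed by only -0.09 (edgeR adjusted p = 0.0381), a call lost without HOXA9_KO replicate 1 or 2 or SAFB_KO replicate 2 or 3 (edgeR adjusted p = 0.104 to 0.217), with other size factors (edgeR adjusted p = 0.139), with no filter (edgeR adjusted p = 0.0690) and with DESeq2 (adjusted p = 0.202). ACSS2 was at 98.7, 95.2 and 92.2 CPM in HOXA9_KO and 82.0, 86.7 and 85.8 in SAFB_KO, higher by 0.17 on the log2 scale (edgeR adjusted p = 0.000598), and by 0.05 with no call when scaled to nuclear protein-coding counts. That scaling took the share of calls that were higher from 49.4 to 29.6%. The 22 lower members were all still lower, which its downward shift of all genes favors.

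In MEIS1_KO against NT_MEIS1ex, edgeR called 0 of 30 members. Of these, 10 had an unadjusted p under 0.05, but the share of all genes under that threshold was not taken, so this count has no background. By adjusted p edgeR called 8.81% of all genes in this comparison, 4.97% higher and 3.84% lower. limma-voom also called 0 members, beside 771 genes higher and 600 lower of 15744 in all. DESeq2 called 5 members, MVK, LSS and TM7SF2 higher and ACACA and SREBF1 lower. It called 836 genes higher and 775 lower of 13302 in all. The median log2 change was 0.09 in the sterol branch and -0.02 in the fatty acid branch, against 0.00 over all genes. The libraries did not overlap for 5 sterol members that were higher, MVK, IDI1, SQLE, LSS and MSMO1, and for ACACA, which was lower, against 8.43% and 7.28% of all genes, 15.7% in either direction. Scaled to nuclear protein-coding counts, the share of calls that were higher went from 56.5 to 68.5%, and 5 sterol members were called higher, beside 979 of 15744 genes in all.

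The sterol members with the smallest p in MEIS1_KO had small differences. TM7SF2 was at 39.8, 38.8, 42.1 and 50.4 CPM in MEIS1_KO and 39.1, 37.0, 32.6 and 34.0 in NT_MEIS1ex. MVK was at 35.7, 33.2, 38.5 and 35.5 CPM against 30.9, 30.8, 31.6 and 32.4. TM7SF2 overlapped through the lowest MEIS1_KO and the highest control library, and MVK did not overlap. LSS was at 155.2, 155.4, 159.8 and 169.8 CPM against 149.4, 145.1, 142.3 and 144.3, and SQLE at 179.5, 178.3, 181.8 and 193 CPM against 155.6, 169.6, 169.1 and 170.8. Both lay above all controls. The log2 changes were 0.26 ± 0.080 for TM7SF2, 0.19 ± 0.059 for MVK, 0.14 ± 0.047 for LSS and 0.14 ± 0.048 for SQLE (edgeR adjusted p = 0.0545, 0.0571, 0.0725 and 0.0829).

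The fatty acid members and the regulators also lay close to their controls. SREBF1 was at 246.4, 276, 282.2 and 308 CPM in MEIS1_KO and 342.1, 296.7, 313.6 and 317.1 in NT_MEIS1ex, and ACACA at 223.5, 215.1, 209.4 and 199.7 CPM against 240.1, 229, 231.4 and 237.7. ACSS2 was at 62.7, 63.5, 70.6 and 73.5 CPM against 56.0, 62.0, 65.0 and 63.6. SREBF1 and ACSS2 overlapped their controls and ACACA did not. Their log2 changes were -0.19 ± 0.062, -0.15 ± 0.047 and 0.13 ± 0.063 for SREBF1, ACACA and ACSS2 (edgeR adjusted p = 0.0633, 0.0606 and 0.218). INSIG1 was at 179, 191.3, 201.6 and 237.1 CPM against 188.6, 222.3, 210.6 and 188.2, and SREBF2 at 446.2, 461.4, 467.2 and 480.3 CPM against 489.6, 457.8, 467.5 and 476.8. Both overlapped, with log2 changes of 0.00 ± 0.081 and -0.03 ± 0.044. SCD was at 1549, 1481, 1554 and 1547 CPM in MEIS1_KO and 1417, 1592, 1507 and 1513 in NT_MEIS1ex, and FADS2 at 236.1, 225.1, 236.8 and 238 CPM against 231.4, 228.1, 209 and 219.2. These desaturases overlapped their controls too, with log2 changes of 0.02 ± 0.046 and 0.08 ± 0.047. Leaving out single libraries brought 0 to 2 sterol members and 0 to 1 fatty acid members to a call. These were TM7SF2 without MEIS1_KO replicate 1 or 2 or NT_MEIS1ex replicate 1 (edgeR adjusted p = 0.0348 to 0.0496), LSS without NT_MEIS1ex replicate 1 (edgeR adjusted p = 0.0284), ACACA without MEIS1_KO replicate 1 (edgeR adjusted p = 0.0497) and SREBF1 without MEIS1_KO replicate 4 or NT_MEIS1ex replicate 2 (edgeR adjusted p = 0.0182 and 0.0347). Beside these values, the summed myeloid marker level was 8614 to 8944 CPM in MEIS1_KO and 5012 to 6629 in NT_MEIS1ex, and the summed interferon-response level was 283 to 458 CPM against 185 to 274, both apart from the controls. Of 10 interferon-response genes 1 was called higher, with a median log2 change of 0.52 over the list, and of 10 proliferation genes 1 was called lower, with a median of -0.05. The part of these shifts in the members' values was not tested.

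**Figure D4:**
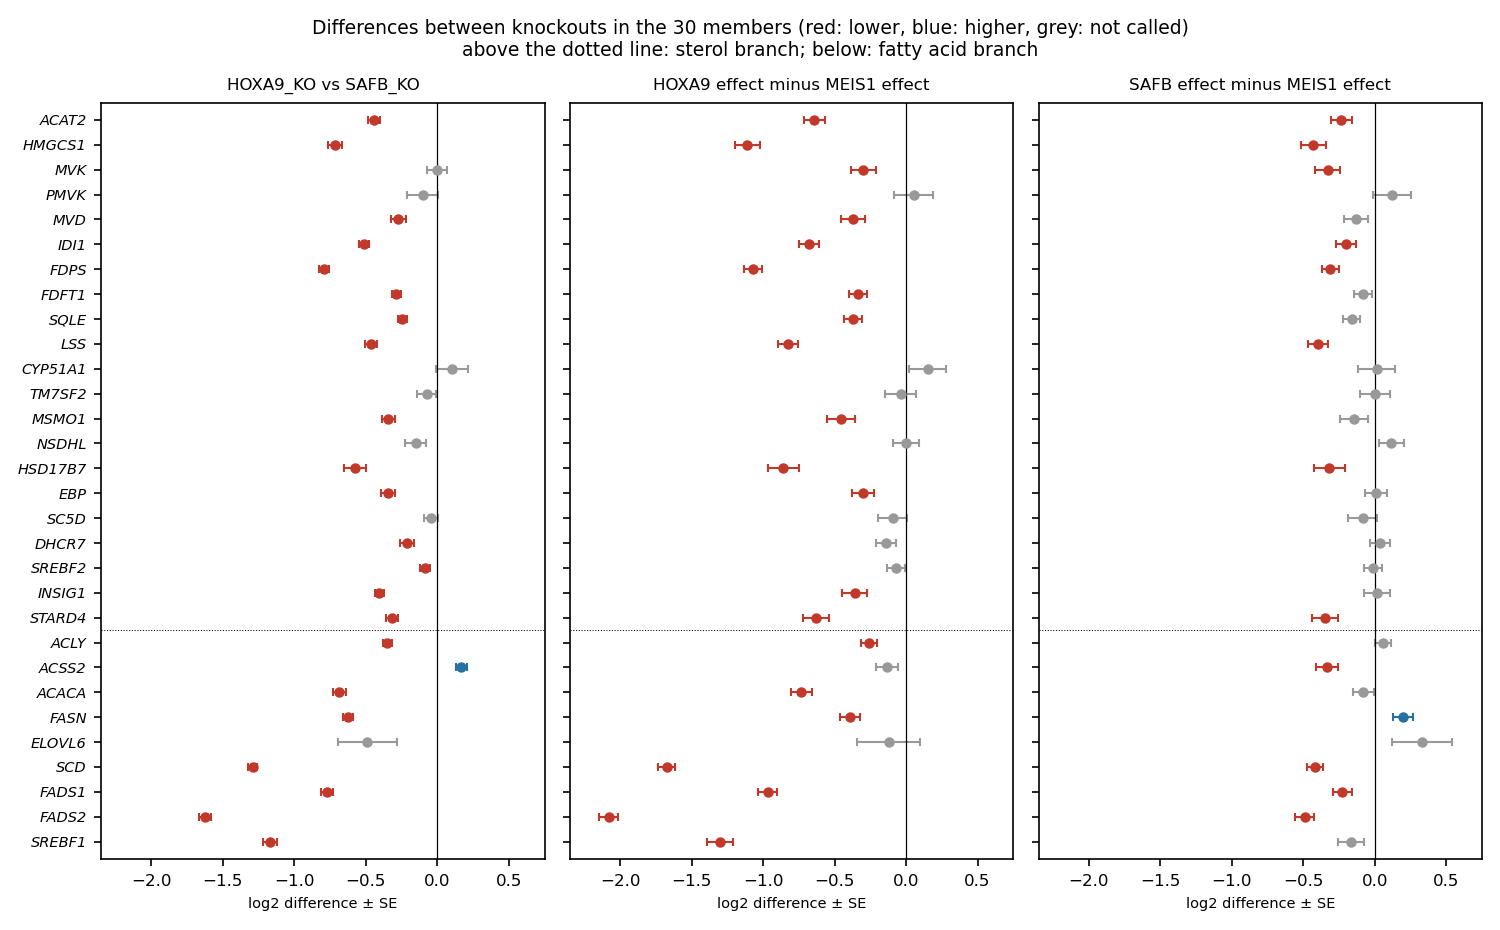
Log2 difference ± SE (x axis) of the 30 members (y axis, in pathway order) between HOXA9_KO and SAFB_KO, and between the HOXA9 or SAFB effect and the MEIS1 effect, each effect taken against its own controls. HOXA9_KO was lower than SAFB_KO for 22 members, and the HOXA9 effect was lower than the MEIS1 effect for 21. The blue points, ACSS2 and FASN, lose their call when libraries are scaled to nuclear protein-coding counts.

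Whether the HOXA9 and SAFB effects differed from the MEIS1 effect was tested over all 17 libraries as a difference of the log2 changes, each against its own controls. The experiment cannot be told apart from the knockout in these differences, and both use the same MEIS1 libraries. The HOXA9 effect was lower than the MEIS1 effect for 21 members, 14 sterol and 7 fatty acid, and higher for none, with edgeR calling 19.7% of all genes lower and 24.5% higher, 44.2% in either direction. FADS2 differed by -2.08 ± 0.069, SCD by -1.67 ± 0.059 and FDPS by -1.07 ± 0.063 on the log2 scale (edgeR adjusted p = 3.92e-23, 2.46e-22 and 2.95e-16). FADS1 differed by -0.97 ± 0.067 and HMGCS1 by -1.11 ± 0.089 (edgeR adjusted p = 2.72e-14 and 1.07e-12). SREBF1 also differed, by -1.30 ± 0.092, while SREBF2, at -0.07 ± 0.063, was not called. All 21 were still called under the 2 other scalings. Scaling to nuclear protein-coding counts moved all genes down, so it could hardly lose a lower call. It took the share of calls that were higher from 55.5 to 19.3%.

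The SAFB effect was lower than the MEIS1 effect for 12 members and higher for FASN, with edgeR calling 8.49% of all genes lower and 12.4% higher, 20.9% in either direction. FADS2 differed by -0.49 ± 0.066, SCD by -0.42 ± 0.059 and LSS by -0.40 ± 0.068 on the log2 scale (edgeR adjusted p = 1.57e-06, 2.53e-06 and 5.01e-05). FDPS differed by -0.31 ± 0.062 and HMGCS1 by -0.43 ± 0.087 (edgeR adjusted p = 0.000399 and 0.000456). SREBF1, at -0.17 ± 0.090, was not called (edgeR adjusted p = 0.196). FASN, at 0.20 (edgeR adjusted p = 0.0373), lost its call when scaled to nuclear protein-coding counts and without NT replicate 1 or 2, SAFB_KO replicate 2 or 3, MEIS1_KO replicate 1, 2 or 3 or NT_MEIS1ex replicate 4 (edgeR adjusted p = 0.0513 to 0.123), and among genes of at least 2 CPM (edgeR adjusted p = 0.165). IDI1, at -0.20 (edgeR adjusted p = 0.0356), lost its call without any 1 of the NT or SAFB_KO libraries, MEIS1_KO replicate 1 or 4 or NT_MEIS1ex replicate 1 (edgeR adjusted p = 0.0553 to 0.0896), with other size factors (edgeR adjusted p = 0.0767), with no filter (edgeR adjusted p = 0.123) and with DESeq2 (adjusted p = 0.0628). HSD17B7 lost its call without NT replicate 2, SAFB_KO replicate 1 or 3, MEIS1_KO replicate 1 or 4 or NT_MEIS1ex replicate 2 (edgeR adjusted p = 0.0541 to 0.116), FADS1 without SAFB_KO replicate 1 (edgeR adjusted p = 0.0590) and ACAT2 without SAFB_KO replicate 2 (edgeR adjusted p = 0.0783). With no filter HSD17B7 and FADS1 also lost theirs (edgeR adjusted p = 0.0563 and 0.0569). Scaling to nuclear protein-coding counts took the share of calls that were higher from 59.3 to 14.8%, with 19 members lower.

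The control levels of the 2 experiments, which were scaled separately and are not comparable, also differed in CPM. Nuclear protein-coding genes took 67.5 to 73.6% of assigned reads in NT and 94.2 to 94.5% in NT_MEIS1ex. The part of this in the control levels was not tested. The ratio of NT_MEIS1ex to NT ran from 0.49 for STARD4 to 6.74 for PMVK, with FASN at 4.06, and no test was made of it. SCD was the highest member per kilobase in all 5 groups. FASN was second to it in both groups of the MEIS1 experiment and INSIG1 in the 3 groups of the other.

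**Figure D5:**
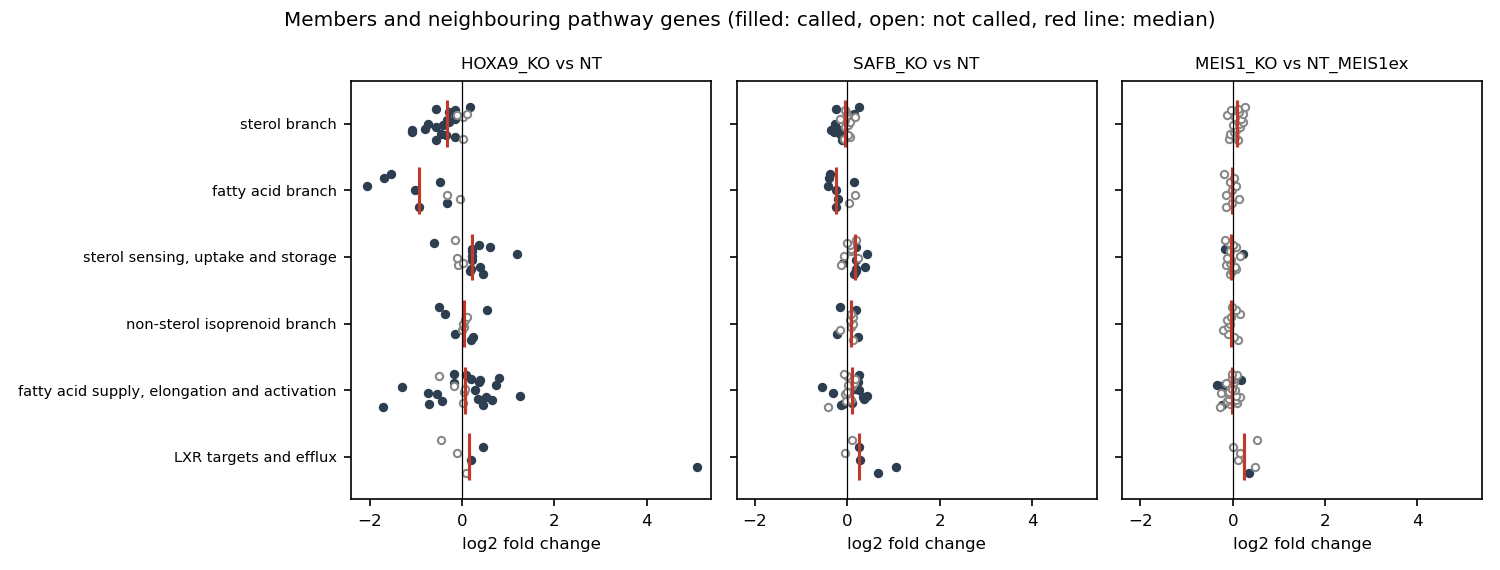
Log2 fold change (x axis) of members by branch and of genes of 4 neighbouring pathway lists (y axis), with filled points for called genes, open points for uncalled ones and a red line at the median. In HOXA9_KO the fatty acid branch lies at a median of -0.92 and the sensing, uptake and storage genes at 0.21, which becomes -0.04 when scaled to nuclear protein-coding counts.

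The other genes of these pathways were read from 4 lists beside the members in HOXA9_KO, where 27.6% of all genes were higher and 29.9% lower, or 2870 and 9267 of 18848 genes when scaled to nuclear protein-coding counts. Of 16 genes of sterol sensing, uptake and storage, 11 were higher and 1 was lower, with a median log2 change of 0.21, but 4 were higher and 4 lower, with a median of -0.04, when scaled to nuclear protein-coding counts. NPC2, which takes cholesterol out of lysosomes, was higher by 1.18, SOAT1, which esterifies cholesterol, by 0.60 and TMEM97, a sterol-regulated membrane protein, lower by 0.61 on the log2 scale. Of 25 tested genes of fatty acid supply, elongation and activation, 12 were higher and 8 lower, and 9 and 13 under that scaling. PGD, an NADPH-making enzyme, was higher by 0.80 and LPIN1, a phosphatidate phosphatase, was lower by 1.30 on the log2 scale (edgeR adjusted p = 2.46e-27 and 7.10e-26).

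In the non-sterol isoprenoid branch, which uses farnesyl diphosphate for other products, HOXA9_KO had 3 of 11 genes higher and 3 lower, or 1 and 5 when scaled to nuclear protein-coding counts. RABGGTA and RABGGTB, the subunits of Rab prenyl transferase, had log2 changes of 0.55 and -0.49. Of 6 tested LXR targets and efflux genes 3 were higher and none lower, or 2 and 3 under that scaling. CYP27A1, the mitochondrial sterol hydroxylase, was higher by 5.10 on the log2 scale, from a mean of 0.313 CPM in NT to 10.4 in HOXA9_KO, and the efflux pump ABCA1 had a log2 change of 0.09 and was not called. In SAFB_KO, where 20.2% of all genes were higher and 15.3% lower, the sensing list had 7 higher and 1 lower, the fatty acid supply list 10 and 4, the isoprenoid list 2 and 2, and the LXR list 4 and 0. Scaled to nuclear protein-coding counts, these became 2 and 3, 5 and 7, 0 and 2, and 2 and 1, beside 1715 and 5533 of 18848 genes in all. In MEIS1_KO, where 4.97% of all genes were higher and 3.84% lower, these counts were 1 and 1, 1 and 4, 0 and 0, and 1 and 0, or 2 and 0, 1 and 2, 0 and 0, and 1 and 0 under that scaling beside 979 and 450 of 15744 genes in all, with ABCA1 higher by 0.35 on the log2 scale.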

How the data were processed

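RNA was measured in 17 MOLM13 libraries, made from ribosome-depleted total RNA with a directional kit, per the labels' protocols. The deposited files hold raw whole-number counts per Ensembl gene, and the submitters' processing notes list the aligner STAR 2.7.10a and the counter HTSeq 1.99.2 with build hg38, beside Trim Galore and bedtools. No source used here gives the strand setting or annotation release. Of 58278 identifiers 57937 were found in GENCODE 29, which gave names and GRCh38 positions. Rows that name no gene stayed out of library sizes. Reads with no feature made up 6.07 to 18.1% and ambiguous reads 6.09 to 12.2% of all counts in a file, assigned or not. The share with no feature differed between the groups of the HOXA9 and SAFB experiment, as given above.

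Counts were filtered with filterByExpr (minimum count 10), scaled by TMM and tested with edgeR 4.0.16 quasi-likelihood F tests (R 4.3.3), in a fit of 9 libraries for HOXA9 and SAFB, a fit of 8 for MEIS1 and a fit of all 17 for differences between effects. P-values were adjusted by Benjamini-Hochberg over all 18876, 15744 or 18836 genes tested, and a call is an adjusted p under 0.05. The test was checked on simulated data. Alternatives were other size factors, scaling to nuclear protein-coding counts without TMM factors, other filters, DESeq2 1.42.0 and limma-voom (limma 3.58.1). Further ones were the replicate number as a block, only the groups compared and leaving out each library. No library pair looked like repeats of 1 library. Values in every library are given for SREBF1, SREBF2, INSIG1 and the 4 sterol and 3 fatty acid members with the smallest p in each knockout, and for STARD4, SCD, FADS2, FASN and ACSS2 in further comparisons, chosen after their values were seen. The members, the other gene lists and the tests were chosen with earlier results of these data known.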

Additional observations from a re-analysis of the deposited data

Results flagged for a closer look

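Among the 60 combinations of member and group in the MEIS1 experiment, 7 had a library that stood apart from the other 3 by Dixon's test, where chance gives about 1 in 20. The share over all genes was not taken, so these flags are not shown to be particular to the members. In NT_MEIS1ex replicate 1 was lowest for IDI1 at 63.4 CPM, SQLE at 155.6 CPM and MSMO1 at 38.3 CPM, and replicate 4 was highest for FDFT1 at 625.5 CPM and CYP51A1 at 17.98 CPM. In MEIS1_KO replicate 2 was lowest for SCD at 1481 CPM and FADS2 at 225.1 CPM. Over genes with a summed count of at least 40, library pairs were also compared by chi-square per degree of freedom, 1 being sampling noise. In NT_MEIS1ex it was 12.3 to 19.1 for pairs with replicate 1 and 4.60 to 14.7 for the others. In MEIS1_KO it was 3.14 to 5.61 for pairs with replicate 2 and 4.23 to 12.0 for the others. Groups of 3 libraries were not examined by Dixon's test.

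The effect of HOXA9 knockout differed from that of MEIS1 knockout by edgeR's test of the difference for 21 members, where 44.2% of all genes tested differed. The log2 differences in the sterol branch were FDPS -1.07, HMGCS1 -1.11, LSS -0.82, IDI1 -0.68, ACAT2 -0.64, HSD17B7 -0.86, STARD4 -0.63, SQLE -0.37, FDFT1 -0.34, MSMO1 -0.45, MVD -0.37, EBP -0.30, INSIG1 -0.36 and MVK -0.30. Those in the fatty acid branch were FADS2 -2.08, SCD -1.67, FADS1 -0.97, SREBF1 -1.30, ACACA -0.73, FASN -0.39 and ACLY -0.26. The effect of SAFB knockout differed from that of MEIS1 knockout for 13 members, where 20.9% of all genes differed. The log2 differences in the sterol branch were LSS -0.40, FDPS -0.31, HMGCS1 -0.43, STARD4 -0.35, MVK -0.33, ACAT2 -0.24, HSD17B7 -0.32 and IDI1 -0.20, and those in the fatty acid branch were FADS2 -0.49, SCD -0.42, ACSS2 -0.34, FADS1 -0.23 and FASN 0.20. Knockout and experiment cannot be told apart in these differences, and both use the same MEIS1 libraries.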

How the results depend on the processing

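The lower calls of SCD, FADS2, FADS1, SREBF1, FDPS, HMGCS1 and LSS in HOXA9_KO held under every alternative run. Scaling to nuclear protein-coding counts gave 2870 genes higher and 9267 lower in HOXA9_KO, 1715 and 5533 in SAFB_KO, 2452 and 5840 between the 2 knockouts, 1861 and 7799 for the HOXA9 minus MEIS1 effect and 606 and 3492 for the SAFB minus MEIS1 effect. Without that scaling these counts were 5207 and 5640, 3812 and 2886, 3791 and 3877, 4618 and 3703, and 2330 and 1600. It left 0 sterol members higher in HOXA9_KO and in SAFB_KO, 0 fatty acid members higher in SAFB_KO and 0 members higher in the remaining differences, made 14 sterol members lower in SAFB_KO and 19 members lower in the SAFB minus MEIS1 effect, and made 5 sterol members higher in MEIS1_KO. In HOXA9_KO it took TM7SF2 from called higher to not called (-0.073), and NSDHL (-0.24) and SC5D (-0.15) from not called to called lower. In SAFB_KO it took EBP (-0.14), INSIG1 (-0.13) and ACLY (-0.11) from not called to called lower.

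With DESeq2's size factors, DESeq2 itself or only the groups compared, 2 sterol members were higher in HOXA9_KO, TM7SF2 and SC5D. Of all genes, 5621 of 18876, 5449 of 18876 and 5534 of 18380 were higher under these settings. With genes of at least 2 CPM, 0 sterol members were higher in HOXA9_KO, beside 4131 of 11793 genes. In SAFB_KO 1 was higher and 11 were lower, beside 2780 and 2727 of 11793 genes. In MEIS1_KO 3 were higher, beside 815 of 11851 genes. The SAFB minus MEIS1 effect had 0 members and 1423 of 11893 genes higher. In MEIS1_KO 3 sterol members were higher with no filter and 3 with DESeq2, and 1 and 2 fatty acid members were lower. Of all genes, 876 were higher and 898 lower of 33432 with no filter. With DESeq2 836 were higher and 775 lower of 13302. For other settings the cause was not tested.

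Leaving out each library in turn gave 14 to 16 sterol members lower and 0 to 1 higher in HOXA9_KO, with 7 fatty acid members lower each time. In SAFB_KO it gave 6 to 7 sterol members lower, 1 to 3 higher, 6 fatty acid members lower and 1 higher. In MEIS1_KO 0 to 2 sterol members were higher and 0 to 1 fatty acid members lower, with 487 to 944 genes higher and 264 to 828 lower against 783 and 604 in all libraries, the fewest without MEIS1_KO replicate 3. Between the knockouts 21 to 22 members were lower, in the HOXA9 minus MEIS1 effect 21 to 22, and in the SAFB minus MEIS1 effect 9 to 13, with 0 to 1 higher. ELOVL6 was called lower in HOXA9_KO than in SAFB_KO without SAFB_KO replicate 2 (edgeR adjusted p = 0.0298).

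The labels give replicate numbers but no shared source. Each library's deviations from its group mean in log CPM were correlated between groups. Same-numbered libraries gave -0.029 to 0.074 over 9 pairs in the HOXA9 and SAFB experiment and -0.23 to 0.096 over 4 pairs in the MEIS1 experiment. Libraries with different numbers gave -0.069 to 0.044 and -0.15 to 0.18. With the replicate number as a block, 5188 genes were higher and 5599 lower in HOXA9_KO, 3843 and 2875 in SAFB_KO, and 729 and 466 in MEIS1_KO, and the call of 1 member changed, ELOVL6 between HOXA9_KO and SAFB_KO (edgeR adjusted p = 0.0439 with the block). ELOVL6 had the fewest reads per kilobase of the members in every group, and depth as a limit was not tested.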
